A study of Mus musculus with 9 samples.

Results

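The 10 alpha and beta tubulin genes in the liver RNA sequencing of mice with nonalcoholic steatohepatitis (NASH) were followed one by one. Members were the rows of the gene count table named Tuba1a, Tuba1b, Tuba1c, Tuba4a and Tuba8 (5 alpha tubulin genes) and Tubb2a, Tubb2b, Tubb4b, Tubb5 and Tubb6 (5 beta tubulin genes). They are 10 of 24008 listed genes, and all 10 had enough reads to be tested among 14379 genes. Livers came from 3 Flox mice (labelled WT), which carry the floxed Irf4 allele without Cre, from 3 F4MKO mice, in which Myl1-Cre deletes Irf4 in skeletal muscle, and from 3 F4MKO mice whose gastrocnemius muscle received AAV8 driving Flag-tagged FSTL1 from the MCK promoter (F4MKO+FSTL1). Every mouse was on the C57BL/6J background and received a high-fat, high-carbohydrate NASH diet with sugar water, and by the study's methods the other 2 groups received AAV-GFP. IRF4 is a transcription factor and FSTL1 is a protein that muscle secretes, and the comparisons ask how the liver responds to loss of the first and to the return of the second in muscle.

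Microtubules are hollow polymers of alpha and beta tubulin dimers. They carry vesicles, lipid droplets and secreted proteins through hepatocytes and form the spindle of dividing cells. Both subunits are encoded by small families of genes, the isotypes, whose proteins are nearly alike except for an acidic tail at the carboxyl end that binds motors and modifying enzymes. The tail of most alpha isotypes ends in tyrosine, which the vasohibin-SVBP peptidase removes and tubulin tyrosine ligase returns. Folding of new chains takes prefoldin, the CCT chaperonin and tubulin cofactors. Cells also hold tubulin mRNA in check through TTC5, which binds the first residues of newly made tubulin chains when free dimers are abundant and triggers decay of the mRNA. The same proteins are common loading controls for liver extracts.

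The isotypes can be told apart at the 3′ end of their coding sequence. The last 60 coding bases of 3 alpha genes are shown because they set the final residue of the tail, with the last sense codon and the stop codon in capitals (5′ to 3′, GRCm38, GENCODE vM21).
Tuba1c: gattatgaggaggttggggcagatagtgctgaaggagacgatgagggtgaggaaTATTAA
Tuba4a: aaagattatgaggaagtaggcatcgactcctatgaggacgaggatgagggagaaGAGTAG
Tuba8: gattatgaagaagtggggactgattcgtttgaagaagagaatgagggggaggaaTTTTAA
Tuba1c ends in TAT, a tyrosine codon. Tuba4a, which had the highest mean level per length among the alpha genes in each of the 3 groups, ends in the glutamate codon GAG and so encodes a tail without the final tyrosine. Tuba8 ends in TTT, a phenylalanine codon. The first codons encode the first residues of the chain, which TTC5 binds. The first 30 coding bases are therefore shown for the most abundant alpha gene and the beta gene with the widest range, with the first 4 codons in capitals.
Tuba4a: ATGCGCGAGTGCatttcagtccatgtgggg
Tubb2a: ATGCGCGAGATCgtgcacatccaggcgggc
All 5 alpha genes have the cysteine codon TGC as their 4th codon, where Tubb2a has the isoleucine codon ATC.

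Tubb2a and Tubb2b are neighbours on chromosome 13, both on the minus strand (GRCm38, chr13:34074274-34078007 and chr13:34126748-34130466). Their coding sequences are 96.5% identical and differ at 47 of 1338 positions. The last 90 coding bases are shown with the 3 differences of the pair there in capitals. None of the 3 changes the encoded residue, so both genes encode the same tail over this stretch.
Tubb2a: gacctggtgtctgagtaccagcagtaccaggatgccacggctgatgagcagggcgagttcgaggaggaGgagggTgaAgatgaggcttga
Tubb2b: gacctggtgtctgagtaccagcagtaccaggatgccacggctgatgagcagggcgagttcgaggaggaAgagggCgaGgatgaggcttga

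Reads from such stretches cannot always be placed on a single gene. Of all 150-base windows (the read length) in the longest transcript, 27.9% in Tubb2a and 20.1% in Tubb2b also occur in the other gene or in the pseudogene Tubb2a-ps2. The shared windows made up 54.7% of Tuba1a, 57.9% of Tuba1b and 46.7% of Tuba1c, which lie together on chromosome 15 (98931425 to 99038110), are 97.1% to 98.3% identical in coding sequence and have several pseudogenes. Tuba4a (chr1:75214228-75219865) shares 45.7% of its windows with the overlapping gene Stk16, Tubb4b (chr2:25222160-25224702) 16.8% with Tubb4b-ps1 and Tuba8 (chr6:121210696-121226854) 10.5% with Gm15856. Tubb5 (chr17:35833921-35838306) and Tubb6 share none. Each gene has 4 exons except Tuba8, which has 5. How reads with several matches were counted is not given in the sources used here, so values of genes that share windows are uncertain to that extent.

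The libraries held 20656976 to 24322984 counted reads, and the 14379 genes tested were scaled by TMM factors from 0.927 to 1.17. Values are CPM, read counts scaled in this way to a library of 1000000 reads. All 6 hepatocyte markers were abundant in every library. Irf4 gave 101 to 132 reads in Flox livers, 120 to 130 in F4MKO livers, and 10, 92 and 116 in F4MKO+FSTL1 livers, and since the deletion is in muscle, these do not check the genotype. F4MKO replicate 1 stood apart: it had the highest TMM factor, the lowest summed hepatocyte markers (65088 CPM, against 82260 to 101620 in the other 8 libraries) and the highest value of the 9 libraries for 9 of the 10 tubulin genes. The fold changes that involve this library are therefore also given without it.

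In Flox livers, Tubb4b, Tubb2a and Tuba4a gave the most transcript per length. Tubb4b had 70.8 ± 16.3 CPM per kilobase (mean ± SD, n = 3 mice, here and below), Tubb2a 52.1 ± 22.1 and Tuba4a 49.1 ± 9.73. The ranges of Tubb4b and Tubb2a overlapped, as did those of Tubb2a and Tuba4a, so the order of these neighbours lay within the spread between mice. Tuba1c (31.6 ± 4.65) and Tuba1b (21.3 ± 2.18) came next on the same scale and were separated from each other and from Tuba4a. With only windows not shared with other genes counted as length, Tuba1c had 64.1 ± 9.44 and Tuba1b 55.4 ± 5.67. Tuba4a then had 95.4 ± 18.9 and Tubb4b 93.8 ± 21.6, so these steps of the order depended on the length used. On the scale of full length, Tubb6 (8.19 ± 0.587) overlapped with Tubb5 (7.21 ± 1.03). Tuba1a (4.45 ± 0.821), Tuba8 (3.87 ± 0.927) and Tubb2b (1.85 ± 1.08) closed the order, each overlapping with the next. In F4MKO livers Tubb2a stood first, at 98.2 ± 29.7 CPM per kilobase, with a range that overlapped that of Tubb4b (77.4 ± 18.2). In F4MKO+FSTL1 livers Tubb2a had 31.3 ± 13.8 on the same scale, below every library of Tubb4b (68.8 ± 2.09) and overlapping with Tuba4a (48.7 ± 4.43) and Tuba1c (30.4 ± 1.09).

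**Figure D1:**
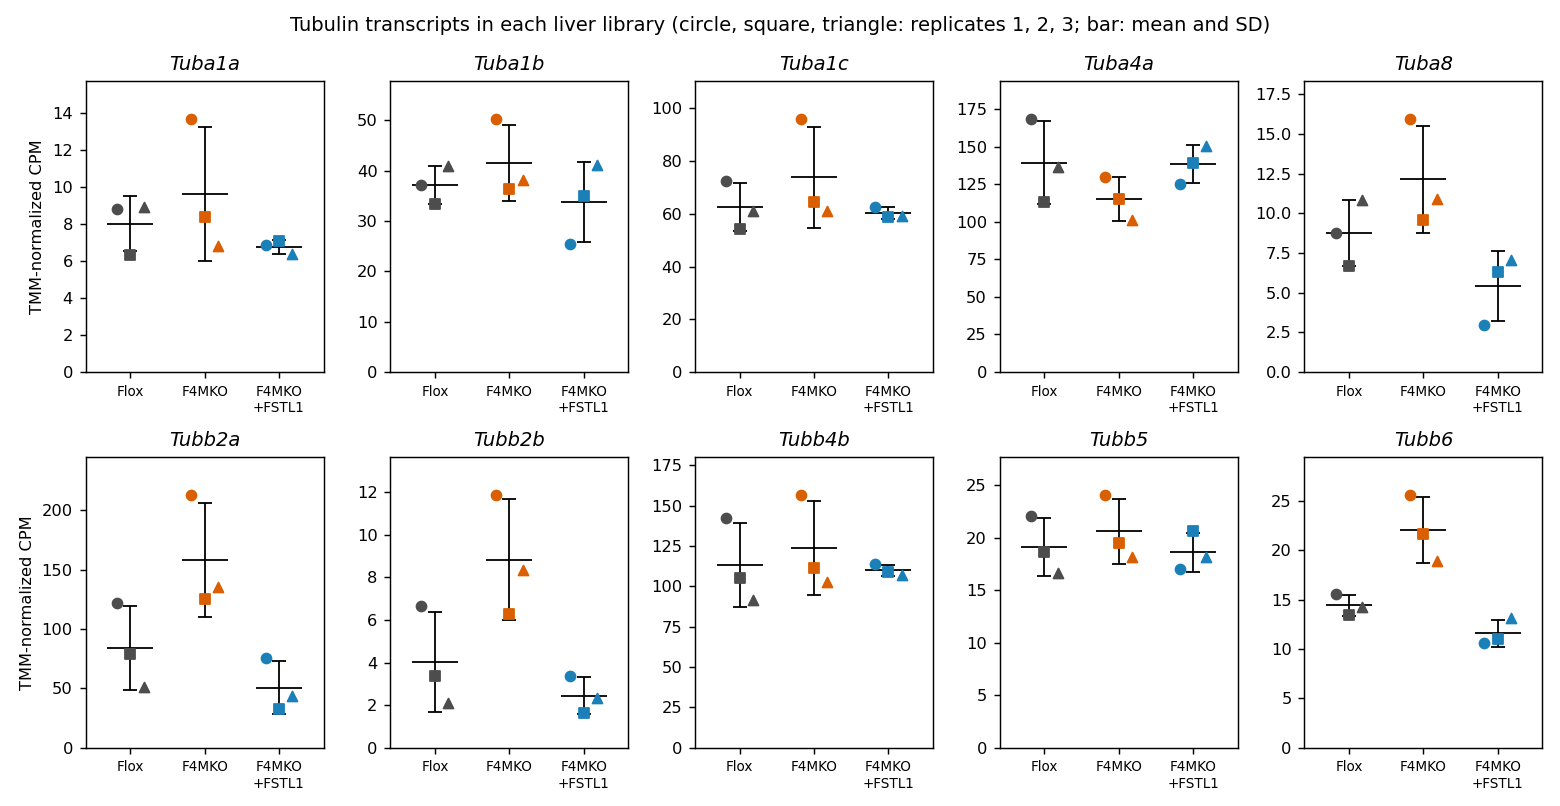
TMM-normalized CPM (y axis, linear from 0) of the 10 tubulin genes in Flox, F4MKO and F4MKO+FSTL1 livers. Circles, squares and triangles are replicates 1, 2 and 3, and bars give the mean and SD of 3 mice. Tubb2a, Tubb2b, Tuba8 and Tubb6 are higher in every F4MKO library than in every F4MKO+FSTL1 library, and Tubb4b and Tubb5 overlap across all 3 groups.

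Loss of muscle IRF4 was examined first, by F4MKO against Flox livers. A gene was called differentially expressed at an adjusted p under 0.05 (edgeR's quasi-likelihood test, Benjamini-Hochberg over all 14379 genes) with a fold change above 1.5. None of the tubulin genes was called (0 of 10), where 0.271% of all genes tested were called. At an unadjusted p under 0.05 the edgeR test had 3 of 10 tubulin genes and 2424 of 14379 genes, and DESeq2 called 1 tubulin gene, Tubb6, and 1.41% of 24005 genes (338). Fitted differences were above 0 for 9 members, with Tuba4a below 0, and their median was 0.25 on the log2 scale (alpha 0.24, beta 0.61), beside -0.0030 for all genes. Both Tubb2a and Tubb6 had every F4MKO library above every Flox library, 2 of 10 members, and 11.7% of all genes did the same.

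The largest differences were in the beta family. Tubb2a, the major beta isotype next to Tubb4b in these livers, had 122, 78.8 and 51.1 CPM in Flox replicates 1 to 3, and 213, 126 and 136 CPM in F4MKO replicates 1 to 3. The groups did not overlap, but the highest Flox library lay just under the lowest F4MKO library, and F4MKO replicate 1 lay far above the rest. The log2 fold change was 0.91 (SE 0.34, 95% interval 0.16 to 1.67), with an adjusted p of 0.219 by edgeR's quasi-likelihood test. Tubb2b, its close relative better known from developing neurons, had 6.64, 3.36 and 2.09 CPM in Flox and 11.9, 6.28 and 8.34 CPM in F4MKO livers. Here the highest Flox library lay above the lowest F4MKO library, with a log2 fold change of 1.14 (SE 0.38, interval 0.31 to 1.97, adjusted p 0.173 by edgeR). Tubb6, a broadly expressed isotype, had 15.5, 13.5 and 14.2 CPM in Flox and 25.6, 21.6 and 18.9 CPM in F4MKO livers, without overlap. Its log2 fold change was 0.61 (SE 0.13, interval 0.32 to 0.91), the most precise of the 3, and its adjusted p of 0.0624 missed the threshold in edgeR. Without F4MKO replicate 3, Tubb6 was called (0.71, adjusted p 0.0489 by edgeR). Without F4MKO replicate 1, the log2 fold changes of Tubb2a, Tubb2b and Tubb6 were 0.64, 0.86 and 0.49, with adjusted p of 0.609, 0.532 and 0.235 by edgeR. With no filter on low counts all 3 were called (adjusted p 0.0359, 0.0241 and 0.0109 by edgeR), among 478 of 24008 genes.

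Among the other genes, Tubb4b differed by 0.13 on the log2 scale (interval -0.26 to 0.52) and Tubb5, the isotype long used as a housekeeping beta tubulin, by 0.11 (-0.20 to 0.42). In the alpha family, Tuba1a, Tuba1b and Tuba1c differed by 0.27 (-0.24 to 0.78), 0.16 (-0.22 to 0.54) and 0.24 (-0.12 to 0.60). Tuba8, an alpha isotype with a divergent sequence, differed by 0.48 (-0.16 to 1.11). Tuba4a was the single gene with a negative value, -0.27 (-0.60 to 0.05). These intervals all include 0. Those of Tuba1a, Tuba1c and Tuba8 reach above a 1.5-fold rise, and that of Tuba4a reaches past a 1.5-fold fall. Without F4MKO replicate 1, the values of Tuba1a, Tubb4b and Tubb5 turned to -0.08, -0.08 and -0.02, those of Tuba1b and Tuba1c were 0.0037 and 0.0055, Tuba8 was at 0.23 and Tuba4a at -0.37.

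FSTL1 in muscle of F4MKO mice was examined next, by F4MKO+FSTL1 against F4MKO livers. Here 4 of the 10 tubulin genes were called, and all 4 fell: Tubb2b, Tubb2a, Tuba8 and Tubb6. Of all genes tested, 14.4% were called and 11.2% were called lower, so the fall of these genes belonged to a comparison with many lower genes. The fitted difference was below 0 for 9 members and above 0 for Tuba4a. The median over the 10 members was -0.40 on the log2 scale (alpha -0.30, beta -0.93), beside 0.01 over all genes. The same 4 genes had every F4MKO+FSTL1 library below every F4MKO library, 4 of 10, and 21.1% of all genes had this pattern.

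Tubb2a had 75.2, 32.3 and 43.7 CPM in F4MKO+FSTL1 replicates 1 to 3, against the 213, 126 and 136 CPM of F4MKO livers. The highest F4MKO+FSTL1 library was well under the lowest F4MKO library. The transcript fell by 1.65 on the log2 scale (SE 0.35, adjusted p 0.00828 by edgeR), that is, it was 3.14-fold lower. Tubb2b had 3.36, 1.63 and 2.35 CPM in F4MKO+FSTL1 livers, against 11.9, 6.28 and 8.34 CPM, and its reads numbered 34 to 72 per F4MKO+FSTL1 library. It showed the largest fall of the 10 genes, 3.60-fold (log2 -1.85, SE 0.40, adjusted p 0.00878 by edgeR). Tubb2b and Tubb2a moved in near proportion over the libraries: Tubb2b reads equalled 4.08% to 6.15% of the Tubb2a reads in all 9, and the log2 CPM of the pair had a Pearson r of 0.984 over 9 libraries (0.962 after group means were removed). The part of shared reads in this likeness was not tested, and the pair is not counted as independent evidence.

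Tubb6 had 10.6, 11.0 and 13.1 CPM in F4MKO+FSTL1 livers, against 25.6, 21.6 and 18.9 CPM in F4MKO livers. Both groups were tight and well separated, and no window of this gene is shared with another gene. It fell 1.91-fold (log2 -0.93, SE 0.14, adjusted p 0.00177 by edgeR), the smallest of the 4 changes and the one with the lowest p. Tuba8 had 2.94, 6.30 and 7.05 CPM in F4MKO+FSTL1 livers, against 16.0, 9.59 and 10.9 CPM in F4MKO livers. The low value of F4MKO+FSTL1 replicate 1 (63 reads) and the high value of F4MKO replicate 1 were the extremes of the 9 libraries. Tuba8 fell 2.25-fold (log2 -1.17, SE 0.30, adjusted p 0.0188 by edgeR), but it missed the threshold without F4MKO replicate 1 (log2 -0.92, adjusted p 0.0796 by edgeR), whereas Tubb2a, Tubb2b and Tubb6 were called without any 1 of the 9 libraries. Without F4MKO replicate 1 these 3 fell by 1.37, 1.58 and 0.81 on the log2 scale.

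The genes not called were mostly the other abundant isotypes. Tubb4b had 157, 112 and 102 CPM in F4MKO and 114, 109 and 107 CPM in F4MKO+FSTL1 livers, which overlap, and its log2 difference was -0.17 (interval -0.56 to 0.22). Tuba4a had 130, 115 and 101 CPM in F4MKO and 125, 139 and 151 CPM in F4MKO+FSTL1 livers, a log2 difference of 0.26 (-0.06 to 0.59). Both groups overlapped in this gene too, and its 3 F4MKO+FSTL1 values lay within the range of the Flox livers (168, 113 and 136 CPM). Tubb5 differed by -0.15 (-0.46 to 0.16), so a fall of 1.5-fold (0.58 on the log2 scale) was outside its interval, as it was for Tubb4b by a small margin. Tuba1b and Tuba1c differed by -0.30 (-0.68 to 0.08) and -0.29 (-0.65 to 0.07). Tuba1a, an isotype of differentiating neurons and other cells, had 13.7, 8.38 and 6.83 CPM in F4MKO and 6.87, 7.07 and 6.37 CPM in F4MKO+FSTL1 livers. Its difference of -0.51 (-1.03 to 0.01) was called without F4MKO replicate 3 (-0.71, adjusted p 0.0443 by edgeR) and was -0.17 without F4MKO replicate 1 (adjusted p 0.602 by edgeR). Without that same library, Tuba1b and Tuba1c differed by -0.14 and -0.06, Tubb5 by -0.02, Tubb4b by 0.04 and Tuba4a by 0.36.

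F4MKO+FSTL1 against Flox livers compares mice that differ in both muscle IRF4 and muscle FSTL1, and it shares its libraries with the other comparisons. None of the 10 genes was called by edgeR or DESeq2, where edgeR called 0.00695% of all genes tested. All 10 fitted values were below 0, with a median of -0.19 on the log2 scale beside -4e-04 over all genes, and edgeR gave an unadjusted p under 0.05 for 2 of them, Tuba8 and Tubb6, and for 1924 of all 14379 genes. Tubb6 alone had all F4MKO+FSTL1 libraries below all Flox libraries, a pattern that 10.7% of all genes had. Its log2 difference was -0.32 (interval -0.62 to -0.02, adjusted p 0.347 by edgeR). The differences of Tubb2a, Tubb2b and Tuba8 were -0.73 (-1.495 to 0.03), -0.71 (-1.62 to 0.19) and -0.69 (-1.36 to -0.03), with adjusted p from 0.352 to 0.509. The size of these values varied with the library left out, but each stayed below 0. Without Flox replicate 1, Tubb2a was at -0.36 and Tubb2b at -0.15, and without F4MKO+FSTL1 replicate 2 they were at -0.49 and -0.49. Tuba8 was at -0.39 without F4MKO+FSTL1 replicate 1. Other libraries left out gave larger falls, down to -1.14 for Tubb2a, -1.02 for Tubb2b and -0.92 for Tuba8. The remaining 6 genes lay between -0.24 and -0.01, but each of their intervals spanned 0 and some were wide.

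**Figure D2:**
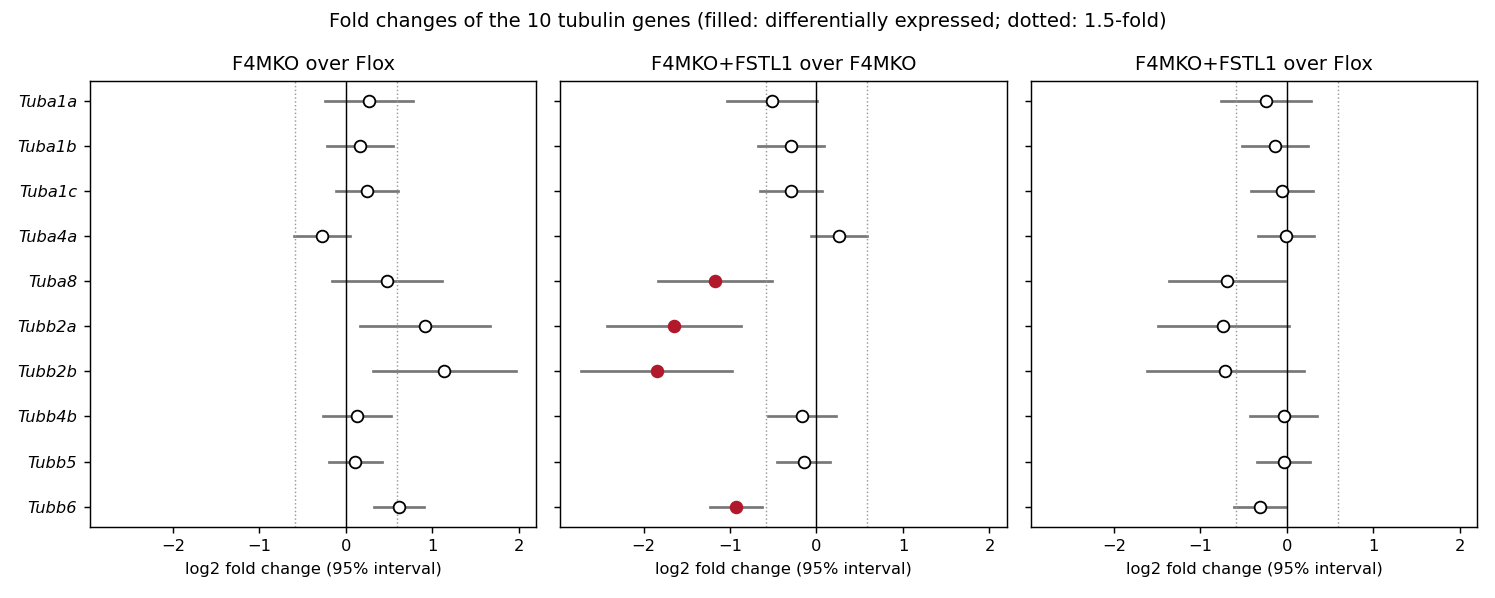
Log2 fold changes (x axis) of the 10 tubulin genes in the 3 comparisons, with 95% intervals from edgeR's quasi-likelihood fit. Filled points passed an adjusted p of 0.05 with a fold change above 1.5, and dotted lines mark 1.5-fold. Filled points appear only for F4MKO+FSTL1 over F4MKO (Tuba8, Tubb2a, Tubb2b and Tubb6, all below 0), and the wide intervals belong to Tubb2a and Tubb2b.

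The make-up of each family shifted with these genes. Shares were taken from CPM per kilobase within a family and are a description with no test. Tubb2a made up 36.2% ± 5.36 of beta tubulin in Flox, 48.8% ± 2.70 in F4MKO and 26.5% ± 8.14 in F4MKO+FSTL1 livers. By library, its share was 51.0%, 45.8% and 49.6% in F4MKO, above all other libraries, and 35.4%, 19.4% and 24.7% in F4MKO+FSTL1. Tubb4b moved the other way in share, from 51.1% ± 3.47 in Flox to 38.9% ± 1.85 in F4MKO and 60.5% ± 6.16 in F4MKO+FSTL1 livers, although its own CPM overlapped among the groups. Tubb2b never exceeded a few percent (1.25%, 2.01% and 0.959% in the 3 groups), Tubb6 held 6.12%, 6.38% and 5.82%, and Tubb5 held 5.29%, 3.95% and 6.23%.

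In the alpha family, Tuba4a held 44.3% ± 2.38 in Flox, 36.4% ± 3.09 in F4MKO and 46.5% ± 0.325 in F4MKO+FSTL1 livers, and its 3 F4MKO shares were the lowest of the 9. Tuba1c held 28.7%, 32.9% and 29.2%, Tuba1b 19.5%, 21.3% and 18.4%, Tuba1a 4.02%, 4.65% and 3.61%, and Tuba8 3.51%, 4.74% and 2.25%. When only windows not shared with other genes were counted as length, the share of Tuba1b in Flox livers was 24.3% and that of Tuba4a 41.2%, and Tubb2a held 40.3%, 53.3% and 30.0% of beta tubulin in the 3 groups. Tuba8 moved most in proportion under this choice, to 2.01%, 2.70% and 1.29%. Without division by length, Tubb5 held 8.37%, 6.28% and 9.80% and Tuba4a 54.3%, 46.0% and 56.5%, while Tubb2a held 34.8%, 47.1% and 25.5%. The summed CPM of the 5 alpha genes overlapped among all 3 groups, at 256 ± 40.9 in Flox, 252 ± 46.9 in F4MKO and 245 ± 20.4 in F4MKO+FSTL1 livers. The 5 beta genes summed to 234 ± 67.4, 333 ± 85.1 and 193 ± 23.7 CPM, and the lowest F4MKO sum (283) lay above the highest F4MKO+FSTL1 sum (220) but below the highest Flox sum (308).

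**Figure D3:**
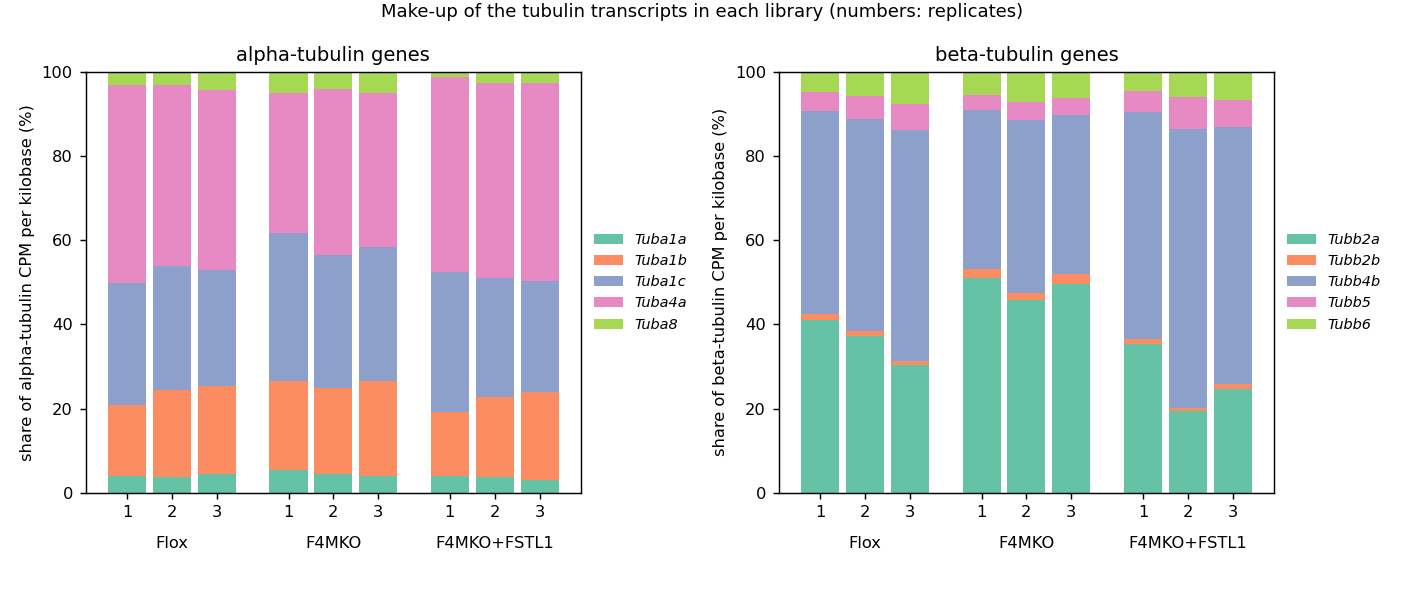
Share (y axis, percent) of each gene in the summed CPM per kilobase of the 5 alpha tubulin genes (left) and the 5 beta tubulin genes (right), with 1 bar per library and replicate numbers under the bars. Tubb2a takes 45.8% to 51.0% of beta tubulin in F4MKO libraries and 19.4% to 35.4% in F4MKO+FSTL1 libraries, and Tubb4b and Tuba4a have their smallest shares in the F4MKO libraries.

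The promoter of Tubb2a is shown because this gene had the largest difference in CPM between F4MKO and F4MKO+FSTL1 livers. The 250 bases before the start site are given 5′ to 3′ on the minus strand (RefSeq, GRCm38.p6, chr13:34078009-34078258), with matches to the searched motifs in capitals.
Tubb2a: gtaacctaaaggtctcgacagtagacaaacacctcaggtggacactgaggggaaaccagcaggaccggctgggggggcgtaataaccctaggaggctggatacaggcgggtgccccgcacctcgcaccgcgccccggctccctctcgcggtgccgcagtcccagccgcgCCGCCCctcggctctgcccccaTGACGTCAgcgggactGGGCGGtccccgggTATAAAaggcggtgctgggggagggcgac
The capitals mark a GC box on the reverse strand beginning 81 bases before the start site, the CRE palindrome TGACGTCA (59 bases before it), a GC box (43 bases before it) and a TATA box, TATAAA (29 bases before it). RefSeq promoter windows of 250 bases before to 50 bases after the start site were held for 8 of the 10 genes, not for Tubb2b or Tubb6. On either strand, the GC box GGGCGG was in the windows of 6 of these 8 genes and in 38.2% of 27025 promoters, and the CCAAT box (CCAAT) in 4 of 8 and in 41.1%. TATAAA was found for Tubb2a and Tubb4b (15.7% of all promoters), TTTGAA, a cell cycle element, for Tubb4b (20.2%), and TGACGTCA for Tubb2a (2.03%). The CRE was searched after the sequence had been read, and no match is taken as a bound site.

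Other genes of the tubulin pathway were read from lists. Of 8 other tubulin genes listed, 4 passed the filter on low counts and none was called in any comparison. Tubg1, the gamma tubulin of nucleation centres, had 32.5 ± 4.06, 28.7 ± 1.93 and 33.8 ± 3.12 CPM in Flox, F4MKO and F4MKO+FSTL1 livers. Tubb3 (neurons), Tubb1 (platelets) and Tubal3 had at most 5, 7 and 1 reads in any library and were not tested. None of the 22 folding genes was called in F4MKO+FSTL1 against F4MKO livers (median 0.14 on the log2 scale), nor any of the 17 tested genes of tubulin modification (median 0.0034) or the 8 of the gamma-tubulin ring complex (median -0.12). Ttc5, the sensor of tubulin mRNA decay, had 8.23 ± 0.436 CPM in F4MKO and 6.49 ± 1.29 in F4MKO+FSTL1 livers (log2 -0.34, adjusted p 0.131 by edgeR). In F4MKO against Flox livers none of these genes was called either.

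Of 18 microtubule-associated genes tested in F4MKO+FSTL1 against F4MKO livers, 1 was called lower and none higher. Of all genes tested, 11.2% were called lower. Fitted values were below 0 for 14 of the 18 and above 0 for 4 (median -0.20). The gene called was Clip2, a protein of growing microtubule ends. It had 10.7 ± 2.55 CPM in F4MKO and 5.50 ± 0.560 in F4MKO+FSTL1 livers (log2 -0.96, adjusted p 0.00799 by edgeR). Among 8 tested genes whose proteins sever or depolymerize microtubules, 3 were called lower and none higher. Fitted values were below 0 for 5 of the 8 and above 0 for 3 (median -0.26). Stmn1, which sequesters tubulin dimers, went from 15.5 ± 0.522 to 8.09 ± 1.34 CPM (log2 -0.94, adjusted p 0.00169 by edgeR). Kif2c, a depolymerizing kinesin of mitotic chromosomes, fell from 2.01 ± 0.547 to 0.298 ± 0.189 CPM (log2 -2.76, SE 0.51, adjusted p 0.00439 by edgeR). Fignl1, an AAA ATPase related to the microtubule-severing protein fidgetin, fell from 0.669 ± 0.358 to 0.146 ± 0.0932 CPM (log2 -2.17, SE 0.56, adjusted p 0.0195 by edgeR). In F4MKO+FSTL1 libraries 3 reads equalled 0.140 to 0.157 CPM, so both end levels rest on few reads. Of 27 motor genes, 1 was called, Kif5a, a kinesin heavy chain, which rose from 3.37 ± 0.851 to 5.39 ± 0.720 CPM (log2 0.68, adjusted p 0.0322 by edgeR), and the list's median was -0.03.

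Genes of mitosis fell too. In F4MKO+FSTL1 against F4MKO livers, 8 of 9 tested were called lower (median -2.59 on the log2 scale). Ccnb1, the cyclin of mitotic entry, went from 3.48 ± 0.262 to 0.196 ± 0.0512 CPM, and Plk1, a mitotic kinase, from 3.67 ± 0.362 to 0.492 ± 0.105 CPM. Bub1, a spindle checkpoint kinase, had 74 reads over the 3 F4MKO libraries and 3 over the 3 F4MKO+FSTL1 libraries, a ratio of 19.6 (counting interval 6.45 to 97.2). Of 14 genes of actin and intermediate filaments, 7 were called lower and none higher, where 11.2% of all genes tested were called lower. Fitted values were below 0 for 13 of the 14 and above 0 for 1 (median -0.64). Tmsb10, which binds actin monomers, fell by 1.31, Vim (vimentin, of mesenchymal cells) by 1.18 and Krt8 (a keratin of hepatocytes and bile duct cells) by 0.80 on the log2 scale. None of the 18, 8, 27, 9 and 14 genes of these lists was called in F4MKO against Flox livers. In F4MKO+FSTL1 against Flox livers Ccnb1 was the single gene called (log2 -3.15, SE 0.37, adjusted p 0.0469 by edgeR). Its mean of 0.196 CPM in F4MKO+FSTL1 livers was close to 3 reads (0.140 to 0.157 CPM), so this fold size rests on few reads.

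Markers of several cell types moved in the same comparison. The summed CPM of 5 cholangiocyte markers was 50.7 to 88.9 in Flox, 160 to 430 in F4MKO and 36.1 to 53.8 in F4MKO+FSTL1 livers. Most of this sum was Spp1, with means of 59.9, 248 and 39.7 CPM in the 3 groups. No other gene of the 5 had a group mean above 8.11 CPM. In F4MKO+FSTL1 against F4MKO livers 4 of the 5 genes were called lower. The value of 430 CPM was that of F4MKO replicate 1, and the other F4MKO libraries had 160 and 223 CPM. Of the 5 genes, Epcam and Spp1 were called higher in F4MKO against Flox livers, and both calls were lost without F4MKO replicate 1 or any 1 Flox replicate, where 0 genes of the whole table were called in that comparison. The summed CPM of 7 stellate cell markers was 344 to 395, 460 to 592 and 219 to 304 in the 3 groups, with 5 of 7 called lower after FSTL1, and that of 7 macrophage markers 537 to 866, 693 to 758 and 327 to 502, also with 5 of 7 called lower. None of 5 endothelial markers (145 to 179, 115 to 159 and 128 to 156 CPM) and none of 5 tested lymphocyte markers (5.65 to 6.87, 5.07 to 8.45 and 2.80 to 7.99 CPM over 6 genes) was called. Of 6 hepatocyte markers, Cyp2e1 was called higher and the others were not called. The mitosis genes summed to 20.5 to 31.8, 37.6 to 47.8 and 8.13 to 13.3 CPM. No marker had 0 reads in any library. The part of these cell types and of dividing cells in the tubulin values was not tested, and in whole liver, fewer cells of a type and less RNA per cell cannot be told apart.

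**Figure D4:**
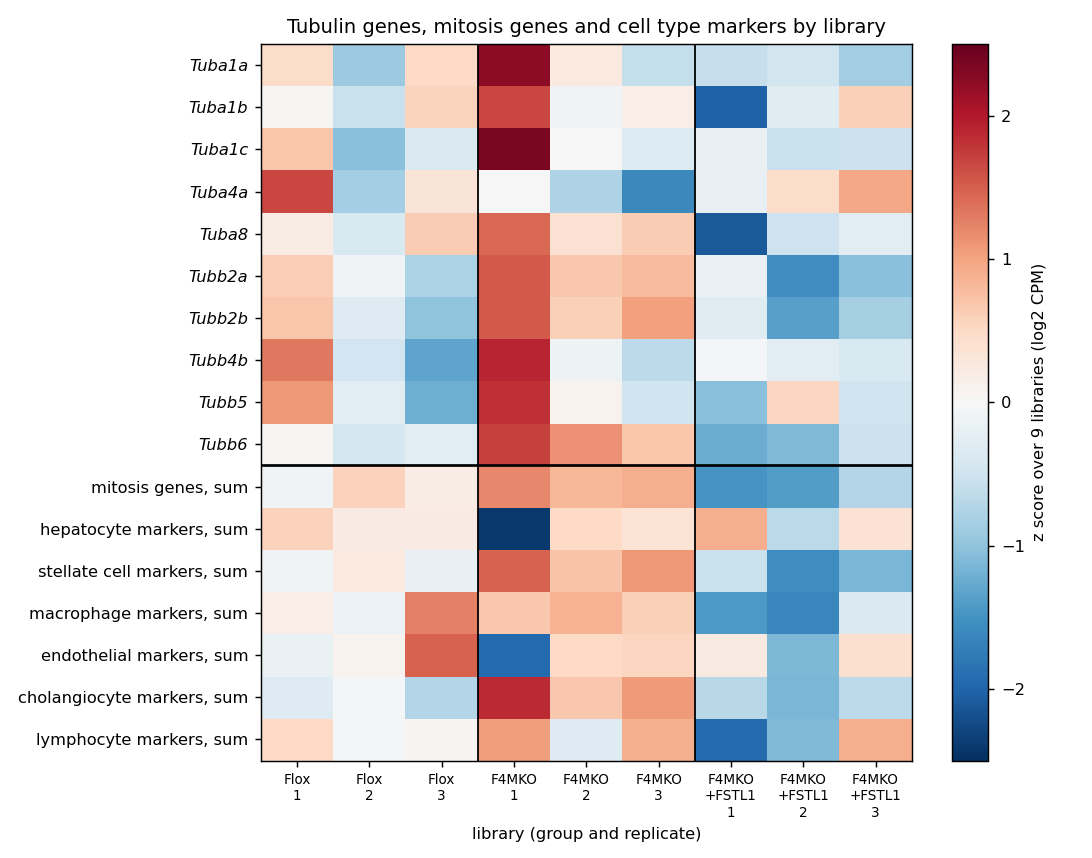
Each cell is the z score, over the 9 libraries, of the log2 CPM of a tubulin gene (above the line) or of the summed CPM of mitosis genes or cell type markers (below it), with libraries in columns. F4MKO replicate 1 is the highest column for 9 of 10 tubulin genes, for mitosis genes and for cholangiocyte, stellate cell and lymphocyte markers. It is the lowest for hepatocyte and endothelial markers.

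Most pairs of tubulin genes varied together over the libraries, and the exceptions involved Tuba4a. Of the 45 pairs among the 10 genes, 41 had a Pearson r above 0 over the 9 libraries. The median r was 0.564, with a range from -0.326 to 0.984. The pairs below 0 were Tuba4a with Tubb2a (-0.326), Tubb6 (-0.297), Tubb2b (-0.294) and Tuba8 (-0.065). After group means were removed, these were 0.274, 0.832, 0.392 and 0.6. Pairs of Tubb2a or Tubb2b with Tuba1b or Tuba8 were then below 0 (-0.378 to -0.102). The mean z score of the 10 genes was 1.63 in F4MKO replicate 1 and at most 0.677 in any other library. Over the 14369 other genes tested, those with the highest r to this mean were Arf6 (0.974), a small GTPase of the cell surface and endosomes, Pmepa1 (0.969), a membrane protein that dampens TGF-beta signalling, Map1s (0.955), a microtubule-associated protein, Pea15a (0.953), an adaptor of ERK kinases and apoptosis, Sccpdh (0.940), and Wdr1 (0.938), a cofactor of actin disassembly. These are descriptions over 9 libraries that share a single extreme library.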

How the data were processed

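Liver RNA from 9 mice (3 per group, 1 library per mouse) was sequenced with 150 bp paired-end reads on BGIseq500. The authors trimmed reads with Trim Galore 0.6.7, mapped them to mm10 with HISAT2 2.2.1 and counted them on genes with featureCounts 2.0.1, and deposited raw counts without normalization. The annotation, use of strand and treatment of reads with several matches or on overlapping genes are not given in the sources used here. The control libraries, labelled WT, were taken as the Flox group.

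The fits used edgeR 4.0.16 (R 4.3.3) on the 24008 listed genes. The filterByExpr function (minimum count 10, total 15) left 14379 genes, TMM scaled the libraries, and a quasi-likelihood fit to all 9 libraries with a mean per group was tested in each comparison, with Benjamini-Hochberg adjustment over all genes. Intervals are 95% intervals of that fit. CPM per kilobase used the longest coding transcript in GENCODE vM21 (GRCm38, the build named mm10), and windows of 150 bases were compared with the transcripts of all other genes. The fit was tested on simulated data. Alternatives were DESeq2 1.42.0, its size factors in edgeR, no filter, 6 libraries only, the replicate number as a block, other call rules, each library left out, and shares without length. Length in unshared windows was added after seeing the data.

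The named genes are the 10 members, up to 3 called genes per pathway list with the largest change in F4MKO+FSTL1 against F4MKO, and the 6 genes with the highest r to the members. Ttc5, Tubg1, Tubb1, Tubb3, Tubal3, Epcam, Spp1 and Cyp2e1 were named after their values were seen. The members and lists were chosen with earlier results of these data known. Intervals of counts cover counting error only.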

Additional observations from a re-analysis of the deposited data

How the results depend on the processing

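In F4MKO against Flox livers the count of tubulin genes called, 0, became 1 with DESeq2 (Tubb6), 3 without the filter on low counts (Tubb2a, Tubb2b and Tubb6) and 0 to 1 with each library left out. The count of all genes called moved from 39 to 338 with DESeq2, to 478 without the filter, to 11 with only the 6 libraries compared, to 0 in a test against a fold change of 1.5, and to 0 to 100 with each library left out (0 without F4MKO replicate 1 or any 1 Flox replicate, 100 without F4MKO replicate 3). In F4MKO+FSTL1 against F4MKO livers the count of 4 became 1 in a test against a fold change of 1.5 (Tubb2b, with Tubb2a at an adjusted p of 0.0517, Tubb6 at 0.0635 and Tuba8 at 0.157, by edgeR) and 3 to 5 with each library left out. All genes called went from 2070 to 620 in the test against 1.5-fold, 1335 without F4MKO replicate 1 and 1295 without F4MKO+FSTL1 replicate 2. In F4MKO+FSTL1 against Flox livers the count of 0 held under all alternatives, and all genes called went from 1 to 284 with DESeq2, 379 without the filter and 0 to 101 with each library left out. The causes were not tested.

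The replicate numbers occur in each group, but same-numbered libraries come from different mice, and libraries that share a number had deviations from the mean of their group that correlated at 0.042 to 0.169, 0.092 to 0.304 and -0.099 to 0.206 in the 3 comparisons, so the numbers were not taken to pair the samples. In those comparisons 5, 6 and 2 of 6 libraries correlated best with their own number. On the second principal component of log2 CPM (12.7% of variance), replicate 3 was highest in each group (20.1, 16.8 and 24.2). Whether a number also marks a batch is not given by the labels and was not tested. With the replicate block, tubulin genes called were 2 (Tubb2a and Tubb2b, adjusted p 0.0433 and 0.0488 by edgeR), 4 and 0. All genes called were then 134, 2170 and 15.

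Sign changes were confined to uncalled genes. Leaving out a library gave Tuba1a -0.075 to 0.46, Tubb4b -0.0783 to 0.33 (-0.0039 without Flox replicate 3) and Tubb5 -0.0191 to 0.22 in F4MKO against Flox, and Tubb4b -0.29 to 0.0377 in F4MKO+FSTL1 against F4MKO. In F4MKO+FSTL1 against Flox it gave Tuba1b -0.29 to 0.0359, Tuba1c -0.15 to 0.0664, Tuba4a -0.14 to 0.15 (0.06 without F4MKO+FSTL1 replicate 1, and 0.0072 with the replicate block), Tubb4b -0.17 to 0.16 and Tubb5 -0.13 to 0.0775 (0.02 without F4MKO+FSTL1 replicate 1). Log2 fold changes of the 4 called genes ran from -2.05 to -1.37 for Tubb2a, -2.15 to -1.58 for Tubb2b, -1.39 to -0.86 for Tuba8 and -1.03 to -0.81 for Tubb6.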
